A study of Rattus norvegicus with 91 samples.

Results

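Changes in 9 genes of oxidant defence and glutathione use were followed through the rat liver's response to methylprednisolone, a synthetic glucocorticoid: Gclm, Gclc, Nqo1, Hmox1, Ephx1, Akr7a3, Osgin1, Gstt2 and Gstp1. Their probe sets were those whose only annotated gene symbol was one of these 9 names. That gave 14 probe sets of 8 genes among the 8799 on the array of the short course, with none annotated to Osgin1 alone, and 10 probe sets of all 9 genes among the 15923 on the array of the long course. All 14 and all 10 passed a filter that set aside the dimmest 30% of probe sets. The members were taken by name, with earlier results of these data known.

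The liver RNA came from Wistar rats given 50 mg/kg methylprednisolone, and arrays labelled as controls, at time 0 in the short course, served as the reference in both courses. The short course had 47 arrays, with 4 controls and 3 arrays at each of 0.25, 0.5, 0.75, 1, 4, 5.5, 6, 7, 8, 18 and 48 h and 2 arrays at each of 2, 5, 12, 30 and 72 h. The long course used another array and had 44 hybridisations: 4 controls, then 4 per time at 6, 10, 13, 18, 24, 36, 48, 72, 96 and 168 h. The sources used here do not give the route, the schedule of dosing, the sex or age of the rats, the time of day, what the controls received, or whether each array was a separate animal, so p-values measure only the spread between arrays. One long course array titled as 96 h is described as 72 h, and the title was used.

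Cells answer oxidants and reactive foreign compounds largely through the transcription factor Nrf2, which the adaptor Keap1 holds down until its cysteines are modified. Freed Nrf2 pairs with small Maf proteins on antioxidant response elements and raises genes that make glutathione, conjugate it to reactive compounds, or reduce and hydrolyse those compounds directly. The liver is the main site of glutathione synthesis and of this second phase of drug metabolism. Glucocorticoids act through a receptor that binds DNA at palindromic response elements or works through other bound factors. Of the genes described here, Gclc and Gclm encode the catalytic and the modifier subunit of glutamate-cysteine ligase, the rate-limiting enzyme of glutathione synthesis. Gstt2 and Gstp1 encode glutathione transferases, Nqo1 a quinone reductase, Akr7a3 an aldehyde reductase that acts on aflatoxin dialdehyde, and Ephx1 the microsomal epoxide hydrolase. Hmox1 encodes heme oxygenase 1, which opens the heme ring, and Osgin1 an oxidative stress-induced growth inhibitor.

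Promoters from RefSeq (build GRCr8, from 250 bases before to 50 after the gene's start) were at hand for 7 of the 9 genes, in 8 entries, with none for Hmox1 or Gstt2. The antioxidant response element core, TGACNNNGC read on both strands, was found in 3 of the 8 entries, against 12.1% of 33469 promoters of the same length. The 3 are shown because their genes include the one with the most probe sets that fell, Gclm, and the steepest late faller, Ephx1; capitals mark the core.
Gclm, chr2:213031885-213032184, plus strand: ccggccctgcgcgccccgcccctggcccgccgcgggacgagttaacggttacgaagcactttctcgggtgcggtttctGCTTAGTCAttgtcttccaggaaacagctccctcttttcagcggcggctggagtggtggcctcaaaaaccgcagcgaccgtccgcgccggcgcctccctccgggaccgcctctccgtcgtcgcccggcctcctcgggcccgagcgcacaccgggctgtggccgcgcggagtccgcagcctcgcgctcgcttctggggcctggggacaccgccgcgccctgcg
Ephx1, 1 of its 2 entries, chr13:95263068-95263367, minus strand: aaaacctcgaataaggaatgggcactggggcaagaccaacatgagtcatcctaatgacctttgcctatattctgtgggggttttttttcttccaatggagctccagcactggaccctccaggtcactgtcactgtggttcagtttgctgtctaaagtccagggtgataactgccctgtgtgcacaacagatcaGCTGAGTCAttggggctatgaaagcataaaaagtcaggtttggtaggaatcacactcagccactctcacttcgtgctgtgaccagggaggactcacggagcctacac
Gstp1, chr1:210769656-210769955, minus strand: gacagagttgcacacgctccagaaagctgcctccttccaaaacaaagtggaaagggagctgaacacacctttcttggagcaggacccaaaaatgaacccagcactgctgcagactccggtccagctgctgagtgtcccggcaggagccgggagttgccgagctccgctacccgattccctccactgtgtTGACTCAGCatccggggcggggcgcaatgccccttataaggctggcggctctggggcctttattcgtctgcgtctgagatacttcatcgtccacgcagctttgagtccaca
The core began 172 bases before the start in Gclm, 57 in Ephx1 and 61 in Gstp1. In Ephx1 and Gstp1 its letters also hold TGAGTCA on one strand, the AP-1 letters, which were not searched separately. The palindrome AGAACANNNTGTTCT, the letters of a full glucocorticoid response element, was in 0 of the 8 entries and in 0.0149% of all promoters. These are matches of letters in short windows and were not tested against the values below.

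Signals are the authors' intensities, and changes are differences of mean log2(signal + 32) from the controls of the same course, so the changes of dim probe sets are understated. Times were grouped into windows, and each change comes from limma with Benjamini-Hochberg adjustment over all 6118 or 11106 probe sets tested, called at an adjusted p of 0.05. Differing at some time, by the F test over all times, were 11 of the 14 probe sets of the short course, beside 33.6% of all tested. In the long course it was 9 of 10, beside 23.8%. The probe sets that did not pass were both of Nqo1 and 1 of Gstp1 in the short course and Akr7a3 in the long course. In these whole-liver extracts, fewer cells of a type and less RNA per cell cannot be told apart. Levels are compared only within a probe set, never between probe sets or courses.

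Array quality was uneven in the short course. Each array's mean correlation with the others ran from 0.8646 to 0.9288, and 9 of 47 lay under 0.9, among them control replicates 1 and 3 and 4 of the 17 arrays at 4-8 h. In the long course it ran from 0.8871 to 0.9412, with 1 array under 0.9. Spike-in controls split the long course into 15 arrays with high and 29 with low signals; 1 of 4 controls and 6 of 12 arrays at 72-168 h were in the high set. All 11 arrays numbered replicate 4 were in the high set and all 11 numbered replicate 1 in the low set. The 3'/5' log2 ratio of Gapdh in the long course had a median of 0.082 in controls and 0.34 at 72-168 h. The part of RNA quality in the results below was not tested. The 6 hepatocyte markers were all on both arrays and high on average, with Alb averaging 10040 and 17710. The lowest short course reading of Alb, however, was 0.1518.

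In the short course Gclm, Ephx1, Akr7a3 and the transferases Gstt2 and Gstp1 fell within hours, Hmox1 rose, and limma called no probe set of these genes against the controls from 12 h on. At 4-8 h, 9 of the 14 probe sets, of 5 genes (Gclm, Ephx1, Akr7a3, Gstt2 and Gstp1), fell, and both of Hmox1 rose. Beside this count, 27% of all probe sets tested were called in that window, 10.5% lower and 16.4% higher. The median change of the 14 was -1.02, against 0.10 over all probe sets tested. Over all probe sets 1005 were called higher and 645 lower. Under quantile normalization it was 797 and 742, and with each array centred on its median it was 659 and 887, with the median over all at -0.02. No call was made for Gclc or for either probe set of Nqo1.

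**Figure D1:**
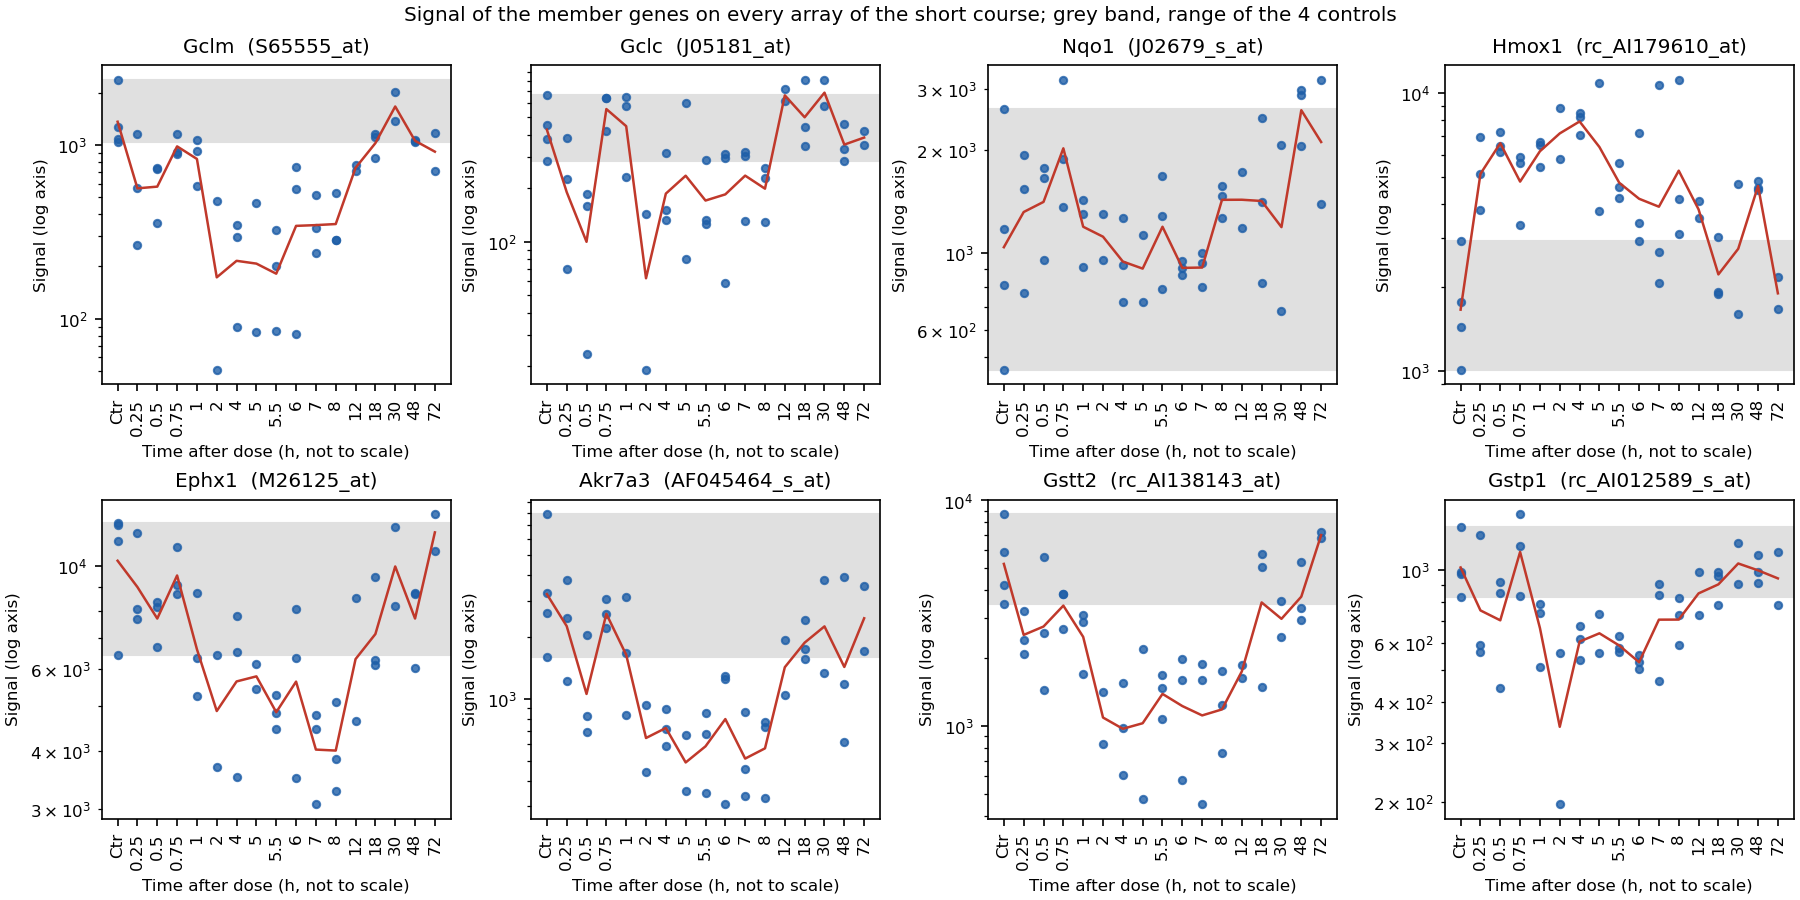
Signal of each array (points, log axis) by time after dose in the short course, for the brightest probe set of each of the 8 genes on that array; the grey band spans the 4 controls and the red line is the back-transformed mean log2 of each time. At 4-8 h all 17 arrays lay below the control band for Gclm, Akr7a3 and Gstt2, and 14 of 17 lay above it for Hmox1.

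Gclm, the modifier subunit that makes the ligase efficient at cellular glutamate levels, fell on all 3 of its probe sets. The brightest read 2376, 1044, 1272 and 1087 in the controls, and 81.61 at the lowest, 296.8 at the median and 752.4 at the highest of the 17 arrays at 4-8 h. Every treated array in that window was below every control, and the same held for the other 2 probe sets. The change was -2.23 ± 0.42 (SE; adjusted p = 0.000194), a fold of 0.213. The other 2, one of which shares its sequence source with the brightest, gave -1.66 ± 0.23 (adjusted p = 4.61e-06) and -2.07 ± 0.23 (adjusted p = 1.77e-07). At 1-2 h the 3 probe sets were at -1.73, -1.29 and -1.70 (adjusted p = 0.0236, 0.00297 and 0.000277). The first of these became -1.07 (adjusted p = 0.234) without 2 h replicate 1, and its call also ended without control replicate 1 (-1.47, adjusted p = 0.0855) or 3 (-1.76, adjusted p = 0.0525), without 1 h replicate 2 (-1.60, adjusted p = 0.0625), and with the replicate number as a block (-1.80, adjusted p = 0.0529). By 30-72 h the brightest read 710.3 to 2018 with a median of 1071, which overlaps the controls. From 4-8 h to 30-72 h the 3 probe sets rose by 2.02, 1.63 and 1.94.

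Gclc, the catalytic subunit, was measured less firmly. Its single probe set read 669.6, 283.4, 452 and 379.2 in the controls and 58.91, 229 and 601.6 at the lowest, median and highest of the 17 arrays at 4-8 h. Only 10 of the 17 lay below every control, and the change of -0.98 ± 0.40 did not pass (adjusted p = 0.0677). It passed narrowly under quantile normalization (-1.08, adjusted p = 0.0479) and median centring (-1.10, adjusted p = 0.046). At single times it was called at 0.5 h (-1.80, beside 8.81% of all tested called) and at 2 h (-2.28, beside 15%), where the 2 arrays read 19.03 and 142.3. Without 2 h replicate 1 the second became -1.39 (adjusted p = 0.358), and without 0.5 h replicate 1 the first became -1.17 (adjusted p = 0.206). Between 4-8 h and 30-72 h Gclc rose by 1.07 (adjusted p = 0.0105).

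The balance between the subunits was read as log2 Gclm minus log2 Gclc on each array, each from its brightest probe set. It averaged 1.606 ± 0.195 (SD, n = 4) in the short course controls and 0.385 ± 0.626 (SD, n = 17) at 4-8 h. The difference of -1.221 had p = 0.001 by a two-sided exact permutation test and 0.008 after adjustment over the 8 windows of both courses. It lay between -1.28 and -1.163 when each array was left out. Taken over the mean of each gene's probe sets it was -0.989 (adjusted p = 0.00668). On these short course probe sets the modifier transcript was therefore lower in this window, relative to the catalytic one, than in the controls. The differences at 1-2 h (-0.645, adjusted p = 0.101), at 12-18 h (-0.952, adjusted p = 0.0952) and at 30-72 h (-0.267, adjusted p = 0.311) did not pass by the same exact permutation test.

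**Figure D2:**
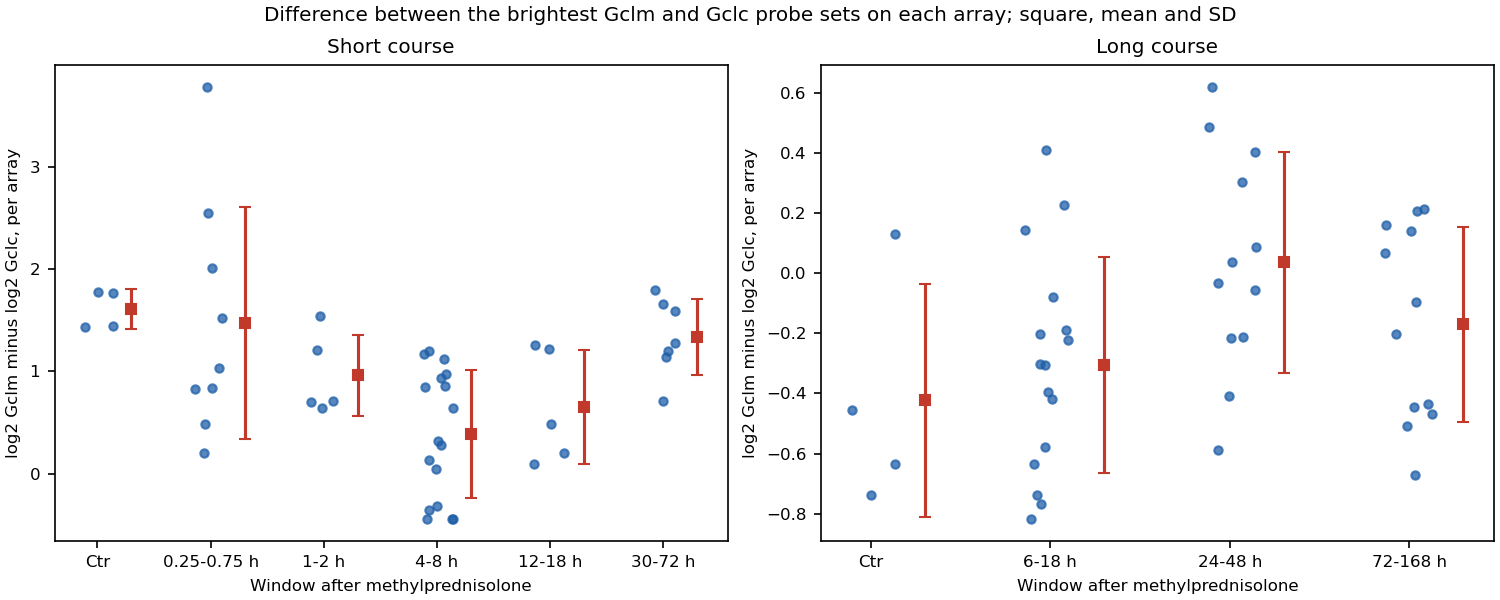
Log2 signal of Gclm minus log2 signal of Gclc on each array (points), by window, in the short and the long course, with the mean ± SD of each window as squares with bars. In the short course the controls averaged 1.606 and the arrays at 4-8 h 0.385, while the zero point has no meaning because the probe sets differ in brightness.

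The glutathione transferases fell with Gclm. Gstt2, a theta-class transferase, read 3459, 4230, 8708 and 5879 in the controls on its brighter probe set, and 450, 1475 and 2190 at the lowest, median and highest at 4-8 h. All 17 treated arrays were below all 4 controls on both of its probe sets. The changes were -2.16 ± 0.37 (adjusted p = 7.47e-05) and -1.46 ± 0.27 (adjusted p = 0.000152). Gstp1, the pi-class transferase, which is scarce in normal hepatocytes and is known as a marker of preneoplastic foci in rat liver, fell by less. Its brighter probe set read 986.1, 1341, 972.2 and 826.8 in the controls and 463.6, 592.4 and 907 at 4-8 h, with 15 of 17 arrays below every control. The change was -0.67 ± 0.21 (adjusted p = 0.0146), and the second probe set gave -0.58 ± 0.22 (adjusted p = 0.0458). Both Gstp1 calls ended without control replicate 2, at adjusted p = 0.0757 and 0.146, and the second also ended when any 1 of 13 other arrays was left out. In the short course both Gstp1 probe sets, 1 of Gstt2, the brighter of Nqo1 and the only one of Akr7a3 carry the suffix s. That suffix marks probes that can match more than 1 transcript.

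Akr7a3 had the lowest estimate among these genes at 4-8 h, within 1 SE of that of Gclm, although its controls were scattered. They read 7893, 2601, 1593 and 3270, and the 17 treated arrays had a lowest value of 307.4, a median of 674 and a highest of 1283. The groups did not overlap, and the change was -2.35 ± 0.42 (adjusted p = 0.000112), a fold of 0.196. At 30-72 h it read 616.2 to 3911 with a median of 1707, and 3 of the 7 arrays were still below every control. Ephx1, which hydrolyses epoxides to diols, read 12270, 6446, 11320 and 12400 in the controls and 3069, 4831 and 8093 at 4-8 h. There 14 of 17 arrays were below every control, and the others overlapped control replicate 2. Its change was -1.05 ± 0.21 (adjusted p = 0.000373), and it rose by 0.97 from 4-8 h to 30-72 h (adjusted p = 3.55e-05).

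Nqo1, often used as a readout of Nrf2, was not called at 4-8 h. Its brighter probe set read 807.1, 2629, 1180 and 458.1 in the controls, a wider range than the 720.7 to 1677 of the 17 arrays at 4-8 h. The changes were -0.01 ± 0.31 (adjusted p = 0.981) and -0.12 ± 0.23 (adjusted p = 0.727). The brighter probe set was higher at 30-72 h than at 4-8 h by 0.84 (adjusted p = 0.00938), and this ended without 30 h replicate 1 (adjusted p = 0.107).

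Hmox1 moved the other way and already read above every control at the first time point, 0.25 h. Taking times singly, however, limma called neither of its probe sets at 0.25 h or at 0.75 h. Its brighter probe set read 1009, 2938, 1444 and 1775 in the controls, and 3783, 6924 and 5128 at 0.25 h. All 9 arrays at 0.25-0.75 h and all 5 at 1-2 h were above every control, and 14 of 17 were at 4-8 h. The changes on the 2 probe sets were 1.70 and 1.88 at 0.25-0.75 h (adjusted p = 0.00523 and 0.0192), and 1.98 and 2.10 at 1-2 h (adjusted p = 0.00131 and 0.00794). The dimmer probe set's first call ended without control replicate 1, 3 or 4 (adjusted p = 0.0525, 0.0859 and 0.074). At 4-8 h they were 1.64 ± 0.32 (adjusted p = 0.000348) and 1.97 ± 0.42 (adjusted p = 0.000804), folds of 3.11 and 3.91. From 4-8 h to 30-72 h Hmox1 fell by 0.85 and 0.97 (adjusted p = 0.0115 and 0.026). These 2 calls ended without 30 h replicate 2, at adjusted p = 0.118 and 0.185.

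The Hmox1 values at 4-8 h moved with array quality and with neutrophil markers. The 4 arrays of low correlation in that window, 4 h replicate 3, 5 h replicate 2, 7 h replicate 3 and 8 h replicate 3, read 8510, 10870, 10680 and 11170 and were the 4 highest of 17. The other 13 ran from 2066 to 8225. The same 4 arrays had the highest summed neutrophil markers, 3717 to 4707 against 575.1 to 3410 in the other 13 and 162.8 to 665.2 in the controls. That sum held 3 of 6 listed markers, led by S100a8 (2.98 at 4-8 h) and S100a9 (2.03), while the defining granule genes Mpo, Elane and Ngp had no probe set of their own in the annotation used. It ran from 342.2 to 5994 at 0.25-0.75 h and from 1224 to 5852 at 1-2 h. Without the 9 arrays of low correlation, which leaves 13 arrays and 2 controls, Hmox1 was 0.84 (adjusted p = 0.104) and 1.03 (adjusted p = 0.0907) at 4-8 h. That setting also drops the 2 lowest controls of the brighter probe set, at 1009 and 1444, and keeps those at 1775 and 2938. The part of neutrophil RNA in the result was not tested.

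The falls of Gclm, Akr7a3 and Gstt2 at 4-8 h were called without those arrays too. Gclm was then -1.72, -1.17 and -1.60 (adjusted p = 0.0418, 0.0185 and 0.00248), Akr7a3 -2.01 (adjusted p = 0.0279), and Gstt2 -1.71 and -1.14 (adjusted p = 0.0121 and 0.0479). Ephx1 became -0.82 (adjusted p = 0.0835) and Gstp1 -0.74 and -0.62 (adjusted p = 0.1 and 0.213). The Gclm, Hmox1, Ephx1, Akr7a3 and Gstt2 calls held when each array was left out singly. The macrophage sum, from 4 of 8 listed markers, was 4698 to 7387 in controls and 5140 to 9684 at 4-8 h. The cholangiocyte sum, from 3 of 6, was 582.6 to 895.3 in controls and 422.4 to 779.6 at 4-8 h. The hepatocyte sum, from 6 of 6, had a median of 104200 (48670 to 163200) in controls and of 68860 (53240 to 99400) at 4-8 h. The median change of those 6 markers was -0.32, against 0.10 over all probe sets, and 1 of the 6 was called lower, Apoa1 at -0.39 (adjusted p = 0.021). The part of hepatocyte RNA in the falls was not tested.

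The earlier and later windows frame this trough. At 0.25-0.75 h, 3 of 14 probe sets were called, beside 3.42% of all tested: Hmox1 on both, and Gclm on 1 (-1.17, adjusted p = 0.00655). At 1-2 h, 10 of 14 were called, 8 lower and 2 higher, beside 12.2% of all tested called, 4.95% lower and 7.22% higher. Over all probe sets that was 303 lower and 442 higher, against 382 and 358 under quantile normalization and 419 and 336 with median centring. That count rested on 2 h replicate 1, an array of low correlation that read 50.76 for Gclm where the other 2 h array read 477. Without it 3 of 14 were called, Hmox1 on its brighter probe set and Gclm on 2, at -1.40 and -1.31. At 12-18 h and at 30-72 h limma called 0 of 14 (5 and 3 at an unadjusted p under 0.05), beside 0.997% and 0.0981% of all tested. Not all values were back in the control range. At 12-18 h 5 of 5 arrays were below every control on the dimmer Gstt2 probe set and 3 of 5 on the brighter. At 30-72 h the brighter Hmox1 probe set had a median of 4493, against 1610 in controls, with 4 of 7 arrays above every control. From 4-8 h to 30-72 h, 11 of 14 rose and 2 fell, beside 36.7% of all tested called, 15.2% up and 21.5% down.

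**Figure D3:**
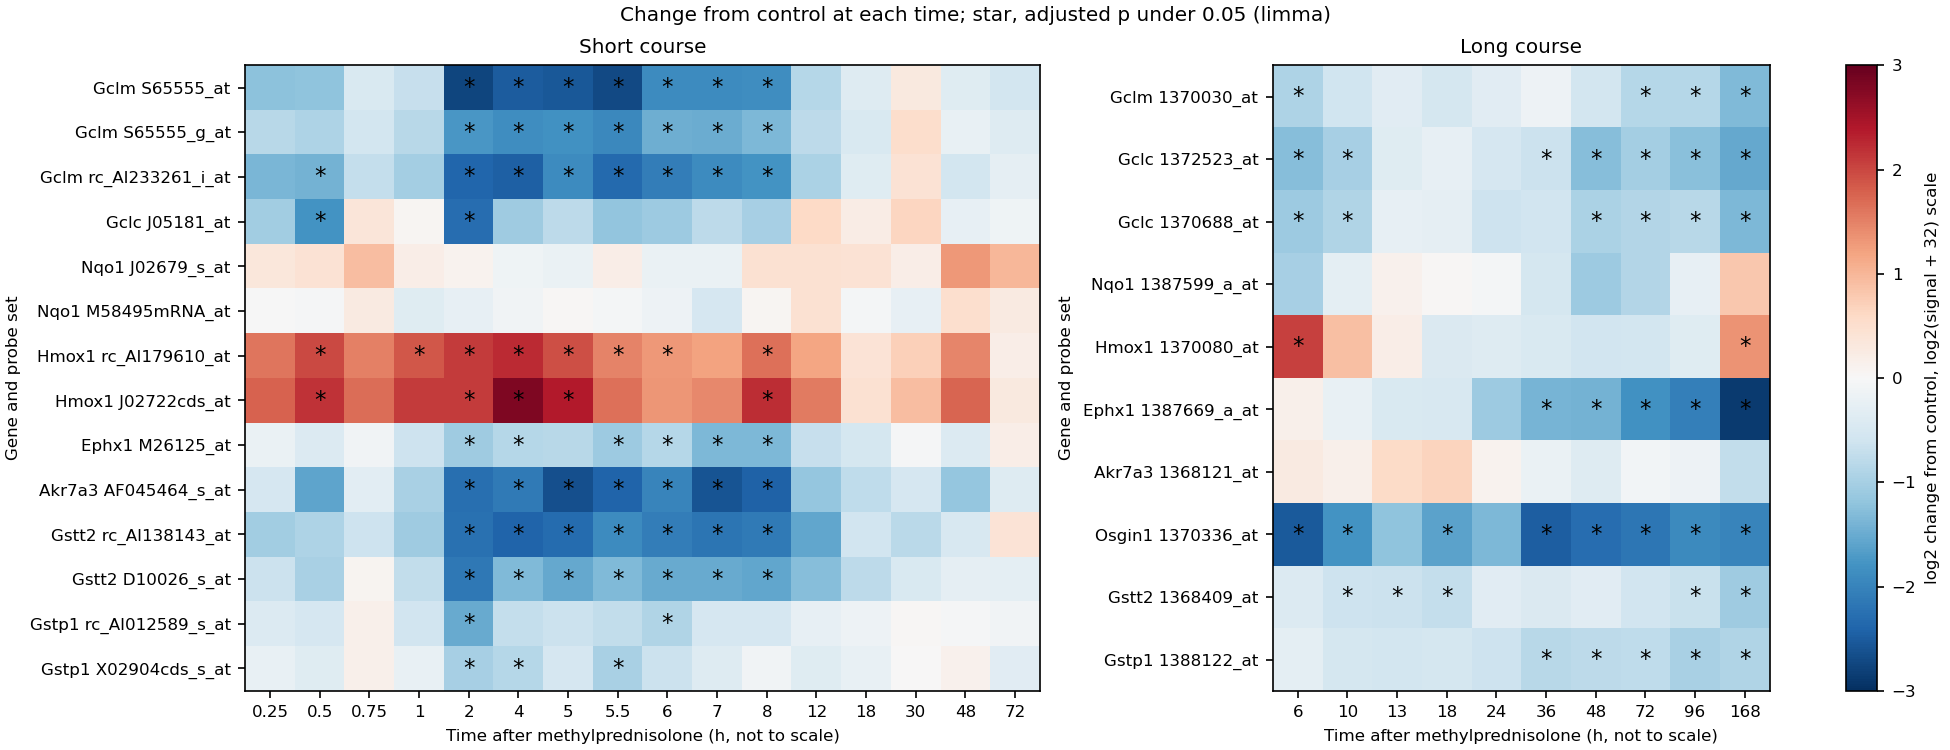
Heat map of the log2 change from the controls of the same course for each probe set of the 9 genes (rows) at each time (columns), with a star where the adjusted p was under 0.05. In the short course the falls of Gclm, Akr7a3 and Gstt2 crowd into 2 to 8 h and Hmox1 is positive beside them; in the long course Ephx1 deepens from 0.15 at 6 h to -2.88 at 168 h and Osgin1 is low throughout.

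In the long course Osgin1, Gclc, Gstt2 and Gstp1 were already lower at 6-18 h, Ephx1 fell after that, and the calls were most numerous in the last window, 72-168 h. At 6-18 h, 5 of 10 probe sets, of 4 genes, were lower and 0 higher, beside 9.31% of all probe sets called, and without control replicate 3 or 4 it was 3 of 10. At 24-48 h, 5 of 10 were lower, beside 5.23%. Taken singly, 24 h had 0 of 10 called (5 at an unadjusted p under 0.05), 36 h had 4 and 48 h had 5. The shares of all probe sets called at these single times are not given here, so these counts stand without a comparison. The median changes of the members at these times were -0.442, -0.551 and -0.867, against -0.041, -0.058 and -0.025 over all probe sets. At 72-168 h, 7 of 10, of 6 genes (Gclm, Gclc, Ephx1, Osgin1, Gstt2 and Gstp1), were lower, beside 10.8%. Of all tested, 4.67%, 2.62% and 6.01% were called lower in these windows. Over all probe sets median centring moved the split from 515 higher and 519 lower to 548 and 337 at 6-18 h, and from 290 and 291 to 320 and 196 at 24-48 h. The medians over the 10 were -0.53, -0.64 and -0.95, against -0.03, -0.04 and -0.03 over all probe sets. Nqo1, Hmox1 and Akr7a3 were not called in any of the 3 windows.

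**Figure D4:**
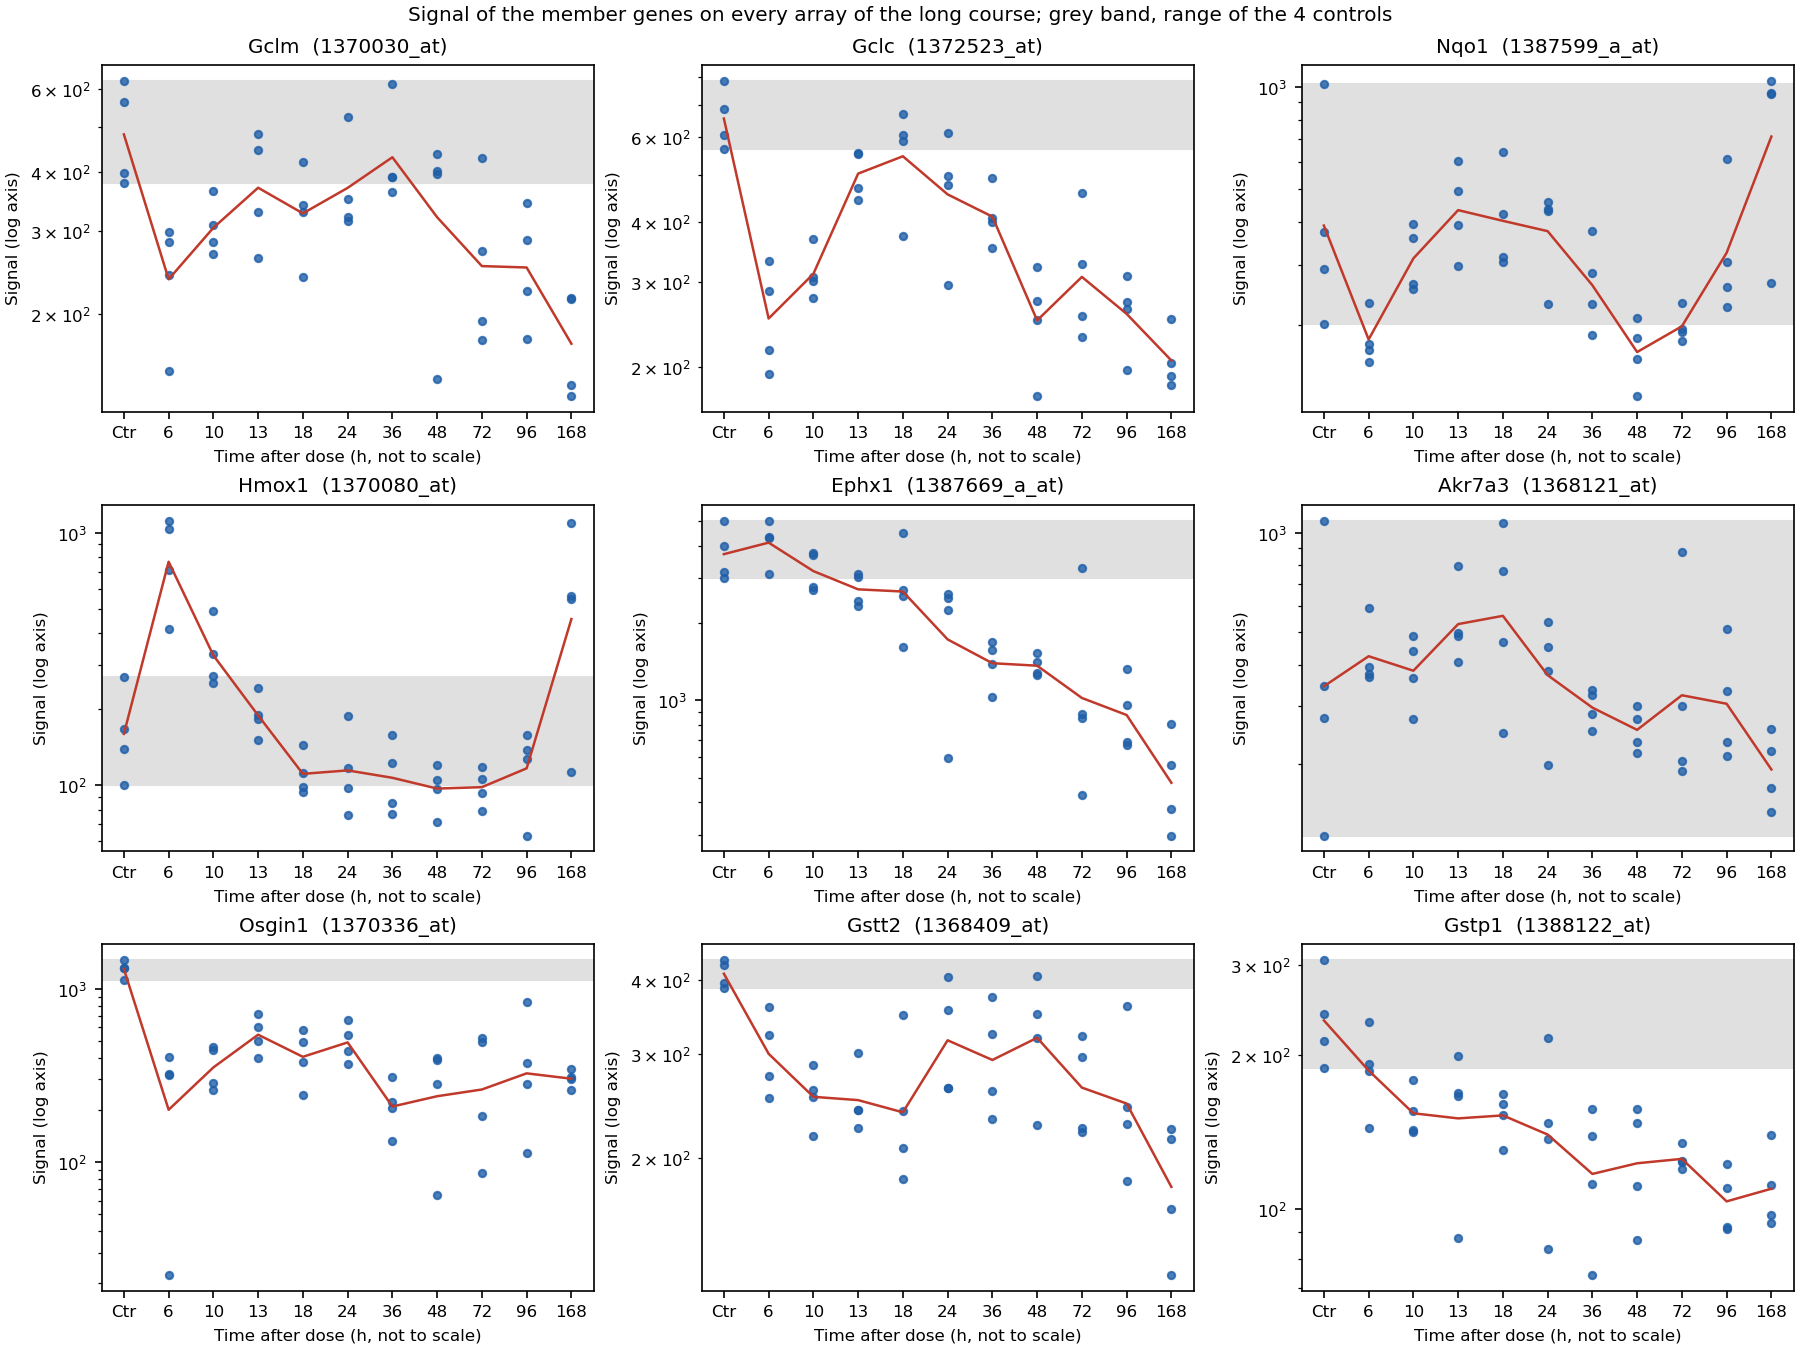
Signal of each array (points, log axis) by time after dose in the long course, for the brightest probe set of each of the 9 genes; the grey band spans the 4 controls and the red line is the back-transformed mean log2 of each time. Osgin1 lay below the control band on every treated array, and Ephx1 lay below it on all 12 arrays at 24-48 h and on 11 of 12 at 72-168 h.

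Gclc was called lower in every window of the long course, on both of its probe sets. Its brighter probe set read 685.5, 568.2, 785.2 and 605.6 in the controls and 183.2, 191.8, 203.5 and 252.1 at 168 h. All 12 arrays at 72-168 h were below every control, with a median of 253.8. The change was -0.72 ± 0.16 at 6-18 h (adjusted p = 0.00185), -0.81 ± 0.16 at 24-48 h (adjusted p = 0.00098) and -1.27 ± 0.16 at 72-168 h (adjusted p = 3.41e-07). The second probe set gave -0.63, -0.72 and -1.02 (adjusted p = 0.0287, 0.0193 and 0.000304). The first of these values became -0.58 (adjusted p = 0.111), -0.51 (adjusted p = 0.159) and -0.66 (adjusted p = 0.0566) without control replicate 1, 3 or 4. The second became -0.67 (adjusted p = 0.0789) and -0.60 (adjusted p = 0.112) without control replicate 1 or 3.

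Gclm read 398.6, 625, 564.5 and 378.9 in the controls and 216.1, 133.6, 141.2 and 214.6 at 168 h, where the groups did not overlap. At 72-168 h the lowest, median and highest were 133.6, 215.3 and 428.1, with 11 of 12 arrays below every control. The change was -1.01 ± 0.21 (adjusted p = 0.000965). At 6-18 h it was -0.60 ± 0.21 and just missed the threshold (adjusted p = 0.0586), though 13 of 16 arrays were below every control. With the spike-in set as a block it passed (-0.60, adjusted p = 0.0239), and so it did in the low set alone (-0.64, adjusted p = 0.0494). The difference between Gclm and Gclc did not pass in any window of the long course, at 0.119, 0.459 and 0.253 (adjusted p = 0.648, 0.101 and 0.311, exact permutation test). At 6 h, a time that both courses share, Gclm changed by -0.933 and Gclc by -1.276. In the short course the order was the other way, at -1.896 for Gclm and -1.081 for Gclc. The balance was not tested between courses.

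Osgin1, the growth inhibitor measured only here, had the most sustained fall. The controls read 1466, 1311, 1318 and 1128, and the 6 h arrays 323.1, 402.8, 316.8 and 22.31. Every one of the 40 treated arrays was below every control, with medians of 400.6, 338.1 and 306.8 over the 3 windows. The changes were -1.78 ± 0.39, -2.04 ± 0.40 and -2.02 ± 0.40 (adjusted p = 0.00194, 0.000842 and 0.000406). It did not differ beyond the spread between 6-18 h and 72-168 h (-0.24, adjusted p = 0.571). In the low spike-in set alone the 3 changes were -1.76, -2.01 and -1.70.

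Ephx1 fell late. It read 2985, 3169, 3996 and 4969 in the controls, 4262, 4311, 5006 and 3087 at 6 h, and 562.1, 376.3, 297.3 and 810 at 168 h. The 6 h arrays lay within or just above the control range, and the 168 h arrays were all far below it. The change was -0.25 at 6-18 h (adjusted p = 0.7), -1.30 ± 0.31 at 24-48 h (adjusted p = 0.0077) and -2.25 ± 0.31 at 72-168 h (adjusted p = 1.92e-06), a fold of 0.211. At 72, 96 and 168 h alone it was -1.83, -2.04 and -2.88 (adjusted p = 0.0019, 0.000391 and 1.61e-06), beside 5.74%, 8.09% and 7.43% of all tested called. The step of -1.998 ± 0.21 from 6-18 h to 72-168 h was called with adjusted p = 3.5e-09. At 72 h 1 array read 3270, inside the control range, while the others read 850.2, 882 and 429.3. In the low spike-in set alone the 72-168 h change was -1.86 (adjusted p = 0.00457) and the 24-48 h change -1.17 (adjusted p = 0.0725).

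The transferases had moved by less than Ephx1 at 72-168 h. Gstt2 read 396, 432.6, 424.9 and 388.2 in the controls and 215.4, 164.2, 127 and 224.5 at 168 h. All 16 arrays at 6-18 h and all 12 at 72-168 h were below every control, and the changes were -0.60 ± 0.15 (adjusted p = 0.00636) and -0.77 ± 0.15 (adjusted p = 0.000424). At 24-48 h its change of -0.37 did not pass (adjusted p = 0.171). Gstp1 read 189, 307.3, 240.6 and 213.4 in the controls and 139.8, 94.03, 97.24 and 111.7 at 168 h. It was -0.47 ± 0.15 at 6-18 h (adjusted p = 0.0435), -0.75 ± 0.16 at 24-48 h (adjusted p = 0.00189) and -0.88 ± 0.16 at 72-168 h (adjusted p = 0.00011). The first of these calls ended when any 1 of 9 arrays was left out, with adjusted p = 0.197 without control replicate 2. All 7 calls at 72-168 h held when each array was left out, with the spike-in set as a block, and in the low set alone.

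Hmox1 rose briefly in the long course. The controls read 100.4, 268.4, 139.2 and 167.5, the 6 h arrays 1037, 416.9, 712.4 and 1120, and the 10 h arrays 332.9, 490.9, 255.4 and 271.8. All 4 arrays at 6 h were above every control, and the change of 2.06 was called (adjusted p = 0.000123, beside 4.6% of all tested), between 1.88 and 2.34 when each array was left out. Over 6-18 h as a whole it was 0.69 ± 0.27 (adjusted p = 0.116), and at 24-48 h the highest array read 189. At 168 h it was high on 3 of 4 arrays, which read 546.8, 1097 and 564.5, while replicate 4 read 113.3. That change of 1.35 (adjusted p = 0.011) became 0.94 (adjusted p = 0.0931) without replicate 2 of 168 h and 1.17 (adjusted p = 0.0543) without control replicate 1.

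The same 168 h array was the lowest at that time in Nqo1 and in immune cell markers. Nqo1 read 950.2, 1038, 954.3 and 266.1 at 168 h, against 374.2, 1015, 291.9 and 200.9 in the controls. The summed neutrophil markers there were 152.4, 586.4, 659.2 and 35.21, and the summed macrophage markers 2061, 2201, 3132 and 1378, in the same order of replicates. Of the neutrophil markers, S100a8 and Itgam were too dim to pass the filter, averaging 31.15 and 28.12. In the controls the neutrophil sum was 50.2 to 311.5 and the macrophage sum 2202 to 2721. The part of these cells in the Hmox1 values was not tested. Over the 72-168 h window Nqo1 was -0.10 (adjusted p = 0.882). Akr7a3 read 121.9, 1088, 276.3 and 343.5 in the controls, and no treated array was below or above all of them. Its changes in the 3 windows were 0.41 ± 0.32, -0.16 ± 0.33 and -0.33 ± 0.33 (adjusted p = 0.485, 0.871 and 0.618), and it was lower at 72-168 h than at 6-18 h by 0.74 (adjusted p = 0.0113).

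Markers of other liver cell types also moved in the long course. The macrophage sum, from 6 of 8 listed markers, was 2202 to 2721 in the controls, 940.1 to 2421 at 6-18 h, 1038 to 1889 at 24-48 h and 1113 to 3132 at 72-168 h. The 24-48 h arrays were all below every control, and 4 of the 6 markers were called lower there, against 2 of 6 in each of the other windows. Clec4f, the Kupffer cell lectin, was at -0.69 (adjusted p = 0.00142), -1.10 (adjusted p = 3.19e-06) and -1.38 (adjusted p = 1.17e-08) in the 3 windows. The cholangiocyte sum, from 5 of 6, was 232.6 to 331.3 in the controls and 126.9 to 272.6 at 72-168 h, with Epcam at -0.67 (adjusted p = 5.66e-05). Epcam was the only marker of that list tested. Krt19, Krt7, Spp1 and Cldn4 were too dim to pass the filter, averaging 27.76, 20.95, 35.33 and 11.95. Bile duct cells carry Gstp1. The part of these cells in the falls of the enzymes was not tested. No marker read exactly 0 on any array, and the lowest reading, 0.1518, was of Alb on 1 short course array.

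From 6-18 h to 72-168 h, 7 of the 10 probe sets fell and 0 rose, beside 21.2% of all tested called, 12.1% lower. Besides Ephx1 and Akr7a3 these were Gclc (-0.55 and -0.39), Gclm (-0.41), Hmox1 (-0.55) and Gstp1 (-0.41). Without some single array the Gclm, Hmox1 and second Gclc calls ended, Gclm's at an adjusted p of up to 0.075. In the low spike-in arrays alone 2 of the 7 calls remained, those of Ephx1 and of the first Gclc probe set.

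The courses were compared at their 4 shared times, 6, 18, 48 and 72 h, as differences between changes of 8 genes. None of the 32 differences passed after adjustment by an exact permutation test (5 were at an unadjusted p under 0.05). The lowest p was 0.00408, for Hmox1 at 48 h, where the change was 1.46 in the short and -0.57 in the long one (adjusted p = 0.131). For Nqo1 at 48 h the changes were 1.30 and -1.09 (adjusted p = 0.131). The probe sets, the scaling and the control arrays differed between courses.

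Over the 17 group means of the short course, which share controls and array processing, the genes of this group most like Gclm were Akr7a3 (Pearson r = 0.888), Gstt2 (0.859) and Gstp1 (0.849). Gclc had 0.783, Ephx1 0.781, Nqo1 0.524 and Hmox1 -0.665. Among all genes the highest were Washc3 (0.964), Grb14 (0.949), Hsd3b7 (0.947), C5h1orf210 (0.943) and Fmo1 (0.942). Over the 11 group means of the long course Gclc came first in the group (0.841), then Gstt2 (0.741), and Hmox1 was again opposite (-0.52). There the genes most like Gclm overall were Fahd1 (0.92), Nfu1 (0.91), Nat8 (0.898), Ttc17 (0.893) and Ttc3 (0.888). These are descriptions without a test.

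The rest of the pathway was read from 5 lists. At 4-8 h of the short course, 4 of 8 measured genes of glutathione synthesis and recycling fell and 1 rose, with a list median of -0.41 against 0.10 over all probe sets. They included Hagh, the second glyoxalase (-1.25 ± 0.31, adjusted p = 0.00304), and Oplah, which opens 5-oxoproline (-0.80, adjusted p = 0.0213). Gpx2, a glutathione peroxidase, rose (1.34 ± 0.32, adjusted p = 0.00235). Of 12 other glutathione transferases 7 fell and 0 rose, with a median of -0.55. Of all probe sets tested, 27% were called in this window and 10.5% were lower. Gsta3 was -1.06 (adjusted p = 0.00759), Gstt1 -0.95 (adjusted p = 0.00226) and Mgst3 -0.90 (adjusted p = 0.0425). The transferases of one class share sequence, so probe sets of the alpha and mu classes can cross-read.

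Among 11 Nrf2 regulators and other Nrf2 targets 3 were called at 4-8 h, a share close to the 27% of all probe sets called. Me1, the malic enzyme, was -0.89 (adjusted p = 0.0235), Tkt, transketolase, -0.67 (adjusted p = 0.00634), and Mafk, a small Maf partner of Nrf2, 0.54 (adjusted p = 0.00495). In the superoxide, peroxide and metal list 2 of 8 rose and 1 fell. Sod2, the mitochondrial superoxide dismutase, rose by 2.13 ± 0.37 (adjusted p = 7.57e-05), while Sod1, the cytosolic one, was -0.41 (adjusted p = 0.000247) and Prdx3 0.33 (adjusted p = 0.0147). Of 5 heme and iron genes, Tfrc, the transferrin receptor, rose by 1.92 ± 0.32 (adjusted p = 5.12e-05). Without the arrays of low correlation, Sod2 (1.81), Sod1 (-0.42), Tfrc (2.04) and Mafk (0.66) were still called, and Gpx2 (0.99, adjusted p = 0.16), Hagh (-0.64, adjusted p = 0.262), Gsta3 (-0.80, adjusted p = 0.253) and Gstt1 (-0.48, adjusted p = 0.328) were not. Oplah, Gsta3, Me1, Tkt, Mafk and Prdx3 each lost the call without 1 of the controls, and Mgst3 lost it when any 1 of 11 arrays was left out.

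At 6-18 h of the long course, where 9.31% of all probe sets were called, the list genes called were Gpx1 (-0.48), Nfe2l2, the gene of Nrf2 itself (-0.69, adjusted p = 0.0212), Txnrd1 (0.39), Mt2A, a metallothionein (1.58, adjusted p = 0.0154), Alas1, the first enzyme of heme synthesis (0.69, adjusted p = 0.0309), and Tfrc (0.66, adjusted p = 0.00699). That was 1 of 12 synthesis and recycling genes, 0 of 16 transferases, 2 of 15 Nrf2 genes, 1 of 11 and 2 of 5 in the others. The Tfrc call held when each array was left out, and the others each ended without at least 2 single arrays. Tfrc was also the only gene of these called in the low spike-in arrays alone (0.64, adjusted p = 0.0114). Nfe2l2 was at adjusted p = 0.142 without control replicate 3 and Mt2A at 0.0976 without control replicate 4.

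At 72-168 h, where 10.8% of all probe sets were called and 6.01% were lower, the transferase list had 3 lower and 1 higher of 16. Gsta3, an alpha-class transferase, fell by 1.75 ± 0.24 on the log2 scale (adjusted p = 1.83e-06), and Gstm1 was -0.66 (adjusted p = 0.00598), while Gstz1, which acts in tyrosine breakdown, was 0.65 (adjusted p = 0.00238). The Nrf2 list had 3 lower and 1 higher of 15, among them Abcc2, the canalicular pump for glutathione conjugates (-0.90, adjusted p = 0.00155), and Nfe2l2 (-0.75, adjusted p = 0.0119). Glutathione synthase, Gss, was -0.69 (adjusted p = 0.0226) and the glutaredoxin Glrx 0.88 (adjusted p = 0.00339). Txn2 (0.41, adjusted p = 0.0332), Taldo1 (0.52, adjusted p = 0.0451), Tfrc (0.51, adjusted p = 0.0461) and Blvra, a biliverdin reductase (-0.56, adjusted p = 0.0474), were near the threshold. Gsta3, Gstm1 and Abcc2 held when each array was left out. In the low spike-in arrays alone Gsta3, Gstm1, Gss and Gstz1 were called. Abcc2 (-0.69, adjusted p = 0.0816), Glrx (0.78, adjusted p = 0.0832) and Nfe2l2 (-0.67, adjusted p = 0.0511) were not called there. Nfe2l2 ended without control replicate 3 (adjusted p = 0.0942), Gss, Glrx and Gstz1 without control replicate 2 (adjusted p = 0.171, 0.0598 and 0.0754), and the 4 near the threshold ended when any 1 of 5 (Txn2) or 10 arrays was left out.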

How the data were processed

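The authors deposited one intensity per probe set and array, on a linear scale. How the scans were summarised and scaled is not given in the sources used here, and per the labels the RNA was total RNA from liver. The 2% trimmed mean of the signal was about 801 on the short course arrays and 150 on those of the long course. One short course array, 6 h replicate 3, stood at 150 and was rescaled to 801. From the deposited intensities log2(signal + 32) was computed. The 59 and 57 spike and control probe sets, and probe sets under the 30th percentile of mean signal, were left out, which kept 6118 and 11106.

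Group means over all arrays of a course were fitted with limma 3.58.1 (R 4.3.3, eBayes with trend), and windows are unweighted means of their times. Adjusted p-values are Benjamini-Hochberg over all probe sets tested, with a threshold of 0.05. The code was tested on simulated data with known changes. Log2 changes of 1 were recovered for 78% of probe sets at 4-8 h, for 65% at 12-18 h and for 89% at 72-168 h. The balance of Gclm and Gclc and the comparison of courses used two-sided exact permutation tests over arrays. Gene names came from the platform annotation, which gave 1 symbol to 7006 and 12783 probe sets, several to 308 and 312, and none to 1426 and 2771. The marker sums add the signals of each listed gene's brightest probe set. Precision is limited by how few arrays each time has.

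The members, lists and windows were chosen with earlier results of these data known. Every member probe set is described. From each pathway list up to 3 called genes of largest change are named at 4-8, 6-18 and 72-168 h, and the 5 genes most correlated with Gclm are named. Alternatives tried were added constants of 16 and 64, quantile and median scaling, other filters, array weights, a replicate block, leaving out each array or all of low correlation, the array of other scale as deposited, the spike-in sets, and the doubtful 96 h label. Figures were drawn with matplotlib 3.10.9.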

Additional observations from a re-analysis of the deposited data

Results flagged for a closer look

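In groups of 4 arrays, 1 array stood far from the other 3 in 8 of the 124 groups examined, and chance alone gives about 1 in 20. Ephx1 in control replicate 2 of the short course was the lowest, at 6446 against 11320 for the next. In the long course Gclm stood high at 36 h in replicate 2 (615.5 against 390.7) and low at 48 h in replicate 3 (145.3 against 396.5). Nqo1 stood low at 24 h in replicate 1 (230.6 against 430.2) and at 168 h in replicate 4 (266.1 against 950.2). Ephx1 stood low at 24 h in replicate 2 (598.5 against 2239), Akr7a3 stood high at 6 h in replicate 2 (592.1 against 392.9), and Osgin1 stood low at 6 h in replicate 4 (22.31 against 316.8).

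The change from control differed between early and late windows for 20 of the 24 probe sets of both courses, by limma's test of the difference itself. Beside this, 36.7% of all tested were called in the short course comparison and 21.2% in the long course one. From 4-8 h to 30-72 h of the short course the differences were 2.02, 1.63 and 1.94 for Gclm, 1.07 for Gclc, 0.84 for Nqo1, 0.97 for Ephx1, and 1.67 for Akr7a3. They were 1.88 and 1.11 for Gstt2, 0.64 and 0.51 for Gstp1, and -0.85 and -0.97 for Hmox1. The lower Gstp1 value ended without 72 h replicate 1 (adjusted p = 0.301). From 6-18 h to 72-168 h of the long course they were -0.41 for Gclm, -0.55 and -0.39 for Gclc, -0.55 for Hmox1, -1.998 for Ephx1, -0.74 for Akr7a3 and -0.41 for Gstp1. In the low spike-in arrays alone 2 of these long course calls remained, those of Ephx1 and of the brighter Gclc probe set.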

How the results depend on the processing

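No called value changed sign, and 16 of the 61 member calls by window held in every setting, those of Gclm, Akr7a3 and Gstt2 at 4-8 h among them. Without the arrays of low correlation the member counts fell from 3 to 0 at 0.25-0.75 h, from 10 to 0 at 1-2 h and from 11 to 6 at 4-8 h. Over all 6118 probe sets tested the calls fell too, from 209 to 14, from 745 to 91 and from 1650 to 416 in the same windows. In the low spike-in arrays alone the count for 72-168 h against 6-18 h fell from 7 to 2. In the high ones alone, with 1 control and chosen after seeing the data, it fell to 1, and the others to 0 at 6-18 h, 0 at 24-48 h, 1 at 72-168 h and 0 for any time. With the replicate block the count at 1-2 h was 6, and in the long course Gclm at 6-18 h passed (-0.60, adjusted p = 0.0475). The labels tie the replicate numbers to nothing, but in the long course all 11 replicate 4 arrays were in the high spike-in set and all 11 replicate 1 arrays in the low, so the number goes with that set. The median correlation of same-numbered arrays' deviations was -0.012 for the short course and 0.058 for the long, and 7 of 47 and 18 of 44 arrays correlated best with their own number. Leaving out each array gave 2 to 4 members called at 0.25-0.75 h, 3 to 10 at 1-2 h, 9 to 12 at 4-8 h, 0 to 0 at 12-18 h and at 30-72 h, and 11 to 13 for 30-72 h against 4-8 h. In the long course it gave 3 to 6 at 6-18 h (3 without control replicate 3 or 4), 4 to 5 at 24-48 h, 7 to 7 at 72-168 h, and 5 to 7 for 72-168 h against 6-18 h. The Gclm minus Gclc differences then ran from -0.423 to 0.024 (a change of sign, not past the test), -0.791 to -0.566, -1.28 to -1.163, -1.104 to -0.813 and -0.343 to -0.162 in the short course windows, and from 0.014 to 0.304, 0.355 to 0.644 and 0.149 to 0.438 in the long. Of the calls at single times, 50 of 69 of the short course and 21 of 42 of the long ended without some array. The causes were not tested.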
